A study of Mus musculus with 8 samples.

Results

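The adult globin genes were taken as every row of the deposited gene table whose symbol starts with Hba- or Hbb-. This gave 4 of the 752 genes listed: the alpha-globin genes Hba-a1 and Hba-a2 and the beta-globin genes Hbb-bs and Hbb-bt. They were measured by RNA-seq in 8 subcutaneous tumors grown from MC38, a mouse colon adenocarcinoma cell line, in germ-free C57BL/6 mice of wild-type genotype, and dissected on day 23. In 4 tumors (36, 37, 39 and 40) the host had received an antibody against PD-1 by intraperitoneal injection together with Fusobacterium nucleatum ATCC-25586 by gavage, and in the other 4 (11, 17, 18 and 19) the antibody alone. All hosts therefore received the antibody and were germ-free at the outset, and the sources used here include no tumor without the antibody. The labels do not say whether each tumor came from a separate mouse, so p-values measure the spread between these tumors.

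Hemoglobin, the oxygen carrier of red blood cells, is a tetramer of alpha-like and beta-like globin chains, each holding a heme group. The genes of the alpha chains and of the beta chains lie in separate clusters on different chromosomes, and an erythroid cell has to make the chains in balanced amounts, since unpaired chains precipitate. Globin transcripts dominate the RNA of erythroblasts and of reticulocytes, the young red cells that still hold RNA. In a bulk tumor they are usually read as a sign of blood in the sample. More cells of a type and more RNA per cell cannot be told apart in bulk RNA.

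The alpha genes lie on chromosome 11, with Hba-a1 at chr11:32283511-32284465 and Hba-a2 at chr11:32296489-32297298 (GRCm38, plus strand), 12.02 kb apart. The beta genes lie on chromosome 7, with Hbb-bt at chr7:103812524-103813996 and Hbb-bs at chr7:103826534-103828096 (minus strand), 12.5 kb apart. Each has 3 coding exons. Within each pair the coding sequences are all but identical, which bears on every value below for a single copy. Hba-a1 and Hba-a2 differ at 1 of 426 coding bases (C381T, Hba-a1 base first, counted from the A of the start codon, stop codon left out), and Hbb-bs and Hbb-bt at 1 of 441 (C417T, Hbb-bs base first). The longest run shared by the transcripts was 415 bases for the alpha pair and 430 bases for the beta pair, against 14 bases between Hba-a1 and Hbb-bs. The stretches around the differing base, from GENCODE M21 transcripts with that base in capitals, are shown because they are the only coding letters that tell the copies apart:
Hba-a1: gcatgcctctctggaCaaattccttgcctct
Hba-a2: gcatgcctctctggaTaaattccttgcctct
Hbb-bs: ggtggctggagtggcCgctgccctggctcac
Hbb-bt: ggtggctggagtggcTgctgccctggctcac

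The promoters of the alpha and beta genes are set side by side as background, and no link between them and the values below was tested. The RefSeq promoter table (GRCm38.p6) held all 4 genes, and the 110 bases before each RefSeq transcription start are printed on the gene's strand. The gene positions given above are those of GENCODE M21, whose starts differ from RefSeq's, so a window can lie inside a GENCODE gene. Capitals mark 3 motifs: CACCC, a box bound by Krüppel-like factors, CCAAT, and TATAA, the TATA box:
Hba-a1 (chr11:32283562-32283671): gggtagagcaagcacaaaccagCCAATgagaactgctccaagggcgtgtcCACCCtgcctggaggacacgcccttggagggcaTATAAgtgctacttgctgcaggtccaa
Hba-a2 (chr11:32296382-32296491): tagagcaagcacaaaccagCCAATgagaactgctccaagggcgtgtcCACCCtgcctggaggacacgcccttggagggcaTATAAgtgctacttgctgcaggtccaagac
Hbb-bs (chr7:103827929-103828038): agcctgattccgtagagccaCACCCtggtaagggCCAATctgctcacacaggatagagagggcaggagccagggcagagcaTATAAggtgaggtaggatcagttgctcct
Hbb-bt (chr7:103813924-103814033): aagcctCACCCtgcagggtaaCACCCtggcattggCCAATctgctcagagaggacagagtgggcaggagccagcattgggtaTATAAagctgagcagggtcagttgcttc
All 4 windows held the 3 motifs on the gene's own strand. Within these windows their order differed between the families: CACCC lay upstream of CCAAT in the beta genes and downstream of it in the alpha genes. Over the 250 bases before the start, 0.779% of 32851 RefSeq promoters held all 3 on the gene's strand. On either strand, 52.0% held CACCC, 33.8% CCAAT and 22.8% TATAA. The letters GATA, the core of the site of GATA factors, were found upstream of each of the 4 genes within 250 bases and in 53.6% of all promoters. The motifs were searched as plain letters, and a match is no evidence of binding. The alpha promoters shared a run of 297 bases, nearly the whole table entry, while the longest run shared by the beta promoters was 14 bases.

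All 4 globin genes had higher means with F. nucleatum, by about the same factor in alpha and beta. They were also the 4 most abundant genes of the deposited table by mean FPKM (fragments per kilobase of transcript, scaled to library size), from 123.1 for Hbb-bt to 247.8 for Hbb-bs over the 8 tumors. The next gene among those with a higher mean, Acta1, had 24.3 FPKM, and the median gene listed had 0.163 FPKM. The globin values rested on 17083 to 69181 reads per tumor, recovered from the deposited log2 values, and on at least 2440 reads for any single gene and tumor. The depth of the whole libraries is unknown. The deposited table is a selection: every gene in it had an absolute log2 difference above 1 and an unadjusted p of at most 0.04995 in this same comparison. The group differences below are therefore descriptions of chosen rows, and Hba-a1, at 1.0013, had the smallest absolute difference of all 752 genes. Hbb-bs lay at 1.0111, Hbb-bt at 1.07 and Hba-a2 at 1.07, so all 4 stood just inside that limit, and genes just outside it were not analysed here.

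Among the alpha chains, Hba-a1 had 356.9, 383.5, 303.2 and 152.5 FPKM in F. nucleatum tumors 36, 37, 39 and 40, against 96.4, 162.6, 140.5 and 180.1 FPKM in anti-PD-1 tumors 11, 17, 18 and 19. The values of 3 F. nucleatum tumors lay above every anti-PD-1 tumor, and tumor 40 lay between tumors 17 and 18. Means were 299.0 ± 103.2 FPKM with F. nucleatum and 144.9 ± 36.2 FPKM with anti-PD-1 alone (SD, n = 4 each), a ratio of 2.06. Hba-a2 had 332.8, 363.0, 288.8 and 142.2 FPKM in F. nucleatum tumors 36, 37, 39 and 40, against 91.8, 131.2, 127.1 and 168.7 FPKM in anti-PD-1 tumors 11, 17, 18 and 19. Its groups overlapped in the same way, through tumor 40, which lay below tumor 19. Means were 281.7 ± 97.9 and 129.7 ± 31.4 FPKM (F. nucleatum and anti-PD-1 alone, SD, n = 4 each), a ratio of 2.17.

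Among the beta chains, Hbb-bs had 330.0, 468.5, 334.7 and 199.7 FPKM in F. nucleatum tumors 36, 37, 39 and 40, against 114.7, 174.6, 150.0 and 209.9 FPKM in anti-PD-1 tumors 11, 17, 18 and 19. Tumor 37 was highest and tumor 40 lay just below anti-PD-1 tumor 19. Means were 333.3 ± 109.8 FPKM with F. nucleatum and 162.3 ± 40.1 FPKM with anti-PD-1 alone (SD, n = 4 each), a ratio of 2.05. Hbb-bt, the less abundant beta gene, had 190.6, 234.4, 165.4 and 84.9 FPKM in F. nucleatum tumors 36, 37, 39 and 40, against 53.5, 86.0, 73.9 and 96.5 FPKM in anti-PD-1 tumors 11, 17, 18 and 19. Here tumor 40 lay below both tumors 17 and 19. Means were 168.8 ± 62.8 FPKM with F. nucleatum and 77.5 ± 18.5 FPKM with anti-PD-1 alone (SD, n = 4 each), a ratio of 2.18. The groups overlapped in all 4 genes, where 7.58% of the genes of the table were higher with F. nucleatum without overlap.

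**Figure D1:**
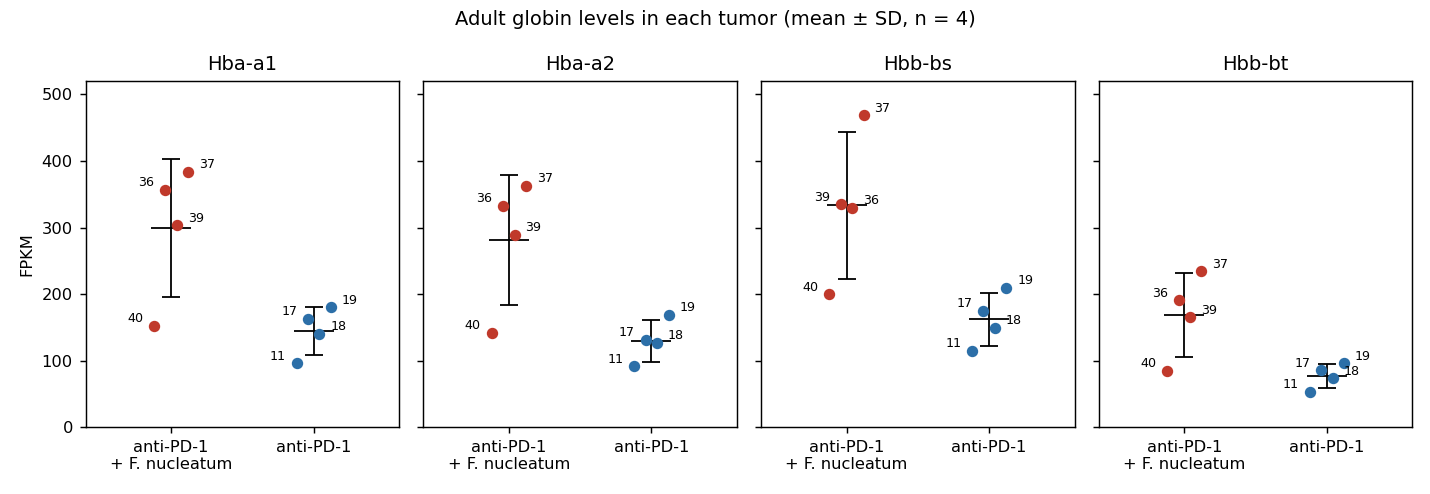
FPKM of each adult globin gene in each tumor, with points labelled by tumor number and the black bar and whiskers giving the group mean ± SD (n = 4). Tumors 36, 37 and 39 lie above all anti-PD-1 tumors in every panel, and tumor 40 lies within their range.

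On log2(FPKM + 1) the difference, F. nucleatum minus anti-PD-1, was 0.99 ± 0.34 for Hba-a1, 1.06 ± 0.34 for Hba-a2, 1.004 ± 0.31 for Hbb-bs and 1.05 ± 0.36 for Hbb-bt (SE). The limma fit covered the 149 genes that averaged 1 FPKM or more. In it the adjusted p (Benjamini-Hochberg) was 0.0664 for each, so none of the 4 passed 0.05. No other gene passed either (0% called higher). Without adjustment 73 of the 149 genes had a limma p under 0.05, 17 of them higher (11.4%), and voom on the recovered reads called 0. All genes tested had been selected on this same comparison, so a limma adjusted p over them is no FDR and is given as a description. In the authors' deposited table the FDR was 0.00880 for Hba-a1, 0.00219 for Hba-a2, 0.00262 for Hbb-bs and 0.00356 for Hbb-bt. All 4 thus passed an FDR of 0.05 there, as did 15.2% of the table's genes in the higher direction. The limma adjusted p was 0.0286 for Hbb-bs and Hba-a2 and 0.0341 for Hba-a1 and Hbb-bt with a filter at 5 FPKM, and 0.0173 for all 4 after median centring of the tumors, while quantile normalization left differences of 0.07 for Hba-a1, 0.17 for Hba-a2, -0.03 for Hbb-bs and 0.74 for Hbb-bt.

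The size of the difference depended on which tumors were kept. Without tumor 40 it grew to 1.29 for Hba-a1, 1.36 for Hba-a2, 1.23 for Hbb-bs and 1.35 for Hbb-bt, with an adjusted p of 0.0569 by limma for each. Without tumor 37 it was 0.85, 0.91, 0.82 and 0.87 for the same genes in that order. Leaving out tumors 36 and 37 together gave 0.60 for Hba-a1, 0.67 for Hba-a2, 0.70 for Hbb-bs and 0.64 for Hbb-bt (limma adjusted p from 0.177 to 0.267), still higher in all 4. Tumors 36 and 37 stand apart in other tissue genes. The summed FPKM of the 23 skeletal muscle genes in the table, of 25 listed, was 480.0 in tumor 36, 25.5 in tumor 37, 5.50 in tumor 39 and 3.68 in tumor 40, against 2.75 to 3.93 in anti-PD-1 tumors. That of the 20 keratinocyte and skin genes, of 26 listed, was 410.6 in tumor 37 and 1.55 to 2.73 in the other F. nucleatum tumors, against 1.53 to 1.998 in anti-PD-1 tumors. Tumor 39 had skin genes inside the anti-PD-1 range, muscle genes above it, at 5.50 FPKM in sum, and 1092 FPKM of the 4 globins in sum. The part of muscle and skin RNA in the globin values of tumors 36, 37 and 39 was not tested.

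**Figure D2:**
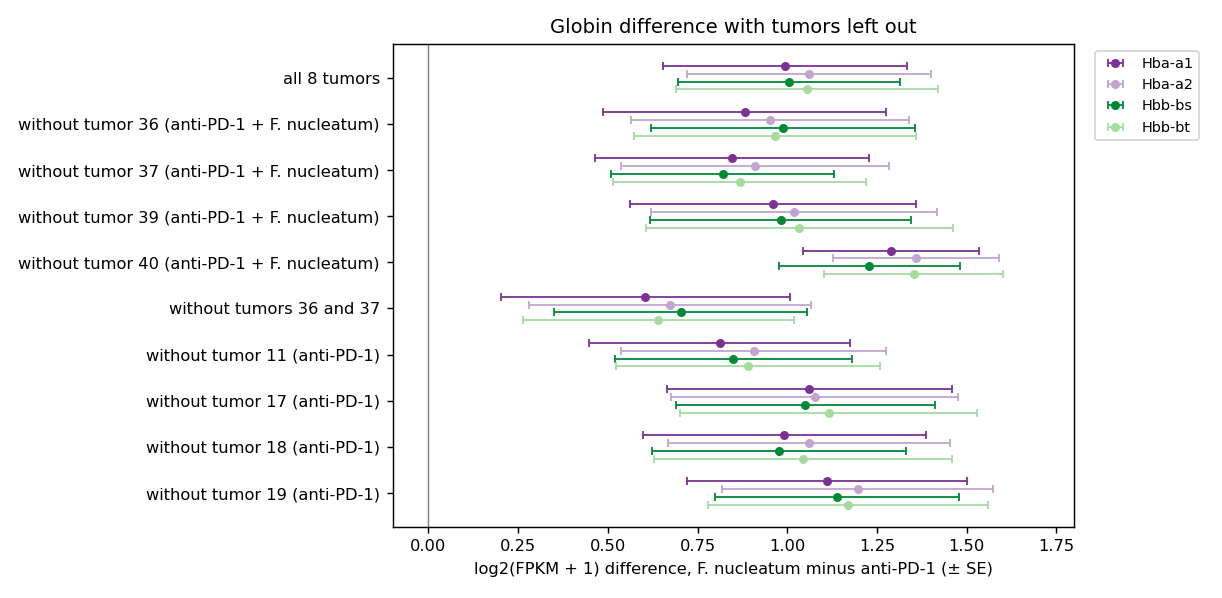
Difference in log2(FPKM + 1), F. nucleatum minus anti-PD-1, for each globin gene with all tumors and with the named tumors left out (points, limma estimate; whiskers, SE). All estimates lie above 0, between 0.60 without tumors 36 and 37 and 1.36 without tumor 40.

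The balance of alpha to beta did not differ detectably between the groups. Summed over their copies, alpha globins had 580.7 ± 201.1 FPKM with F. nucleatum and 274.6 ± 66.8 FPKM with anti-PD-1 alone, and beta globins 502.1 ± 171.2 and 239.7 ± 58.5 FPKM in the same groups (SD, n = 4 each). The ratio of alpha to beta was 1.32, 1.06, 1.18 and 1.04 in F. nucleatum tumors 36, 37, 39 and 40, against 1.12, 1.13, 1.20 and 1.14 in anti-PD-1 tumors 11, 17, 18 and 19. Alpha exceeded beta in all 8 tumors. The mean ratio was 1.15 ± 0.132 with F. nucleatum and 1.15 ± 0.0343 with anti-PD-1 alone (SD, n = 4 each). The log2 ratio differed by 0.0019 ± 0.0840 (SE; two-sided exact permutation p = 1, adjusted p = 1 over 6 ratios), and 70 arrangements allow no p below 0.0286. The F. nucleatum tumors lay on both sides of the anti-PD-1 range, with tumor 36 above it and tumors 37 and 40 below it. The alpha share of the globin reads was 56.9% in tumor 36 (exact binomial 95% interval 56.5 to 57.3%) and 50.6% in tumor 40 (50.04 to 51.2%), against 52.6% to 54.3% in anti-PD-1 tumors. These intervals cover counting error only, since reads copied by PCR are not independent molecules, and a difference in spread between the groups was not tested.

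Alpha and beta followed each other closely from tumor to tumor. Ranked by their sums, the 8 tumors stood in the same order for alpha as for beta, with tumor 37 first, tumors 36 and 39 next and tumor 11 last. On log2(FPKM + 1), Pearson's r between alpha and beta was 0.989 and Spearman's rho 1 over 8 tumors, each with an exact permutation p of 4.96e-05, the smallest that 8 tumors allow (adjusted over 4 relations, 1.98e-04). Without tumors 37 and 36, the farthest from the median, r was 0.991 over 6 tumors (exact permutation p = 0.00278). Taken as deviations from the group means, which removes the group difference the rows were selected for, r was 0.974, a value that was not tested. Tumors 36, 37 and 39, at 1092 to 1449 FPKM of the 4 globins in sum, lay apart from the other 5, at 356.4 to 655.2 FPKM, and neither set is large enough for a correlation of its own.

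Within each family the same copy had the lower FPKM in all 8 tumors, by more in the beta pair than in the alpha pair. Hbb-bt had 0.577, 0.500, 0.494 and 0.425 of the FPKM of Hbb-bs in F. nucleatum tumors 36, 37, 39 and 40, against 0.466, 0.492, 0.493 and 0.460 in anti-PD-1 tumors 11, 17, 18 and 19. Tumor 36 was the highest and tumor 40 the lowest of all 8, so that the anti-PD-1 tumors lay inside the range of the F. nucleatum tumors. The share of beta reads assigned to Hbb-bt was 34.6% in tumor 36 (95% interval 34.0 to 35.1%, exact binomial) and 28.02% in tumor 40 (27.3 to 28.8%), against 29.6% to 31.1% in anti-PD-1 tumors. The log2 ratio differed by 0.05 ± 0.09 between the groups (SE; exact permutation p = 0.629, adjusted p = 0.943).

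Hba-a2 had 0.933, 0.947, 0.953 and 0.932 of the FPKM of Hba-a1 in F. nucleatum tumors 36, 37, 39 and 40, against 0.952, 0.807, 0.905 and 0.937 in anti-PD-1 tumors 11, 17, 18 and 19. All tumors but 17 and 18 lay between 0.932 and 0.953. The share of alpha reads assigned to Hba-a2 was 39.8% in anti-PD-1 tumor 17 (exact binomial 95% interval 38.8 to 40.9%), against 42.6% to 43.9% in all other tumors. The log2 ratio differed by 0.07 ± 0.05 (SE; exact permutation p = 0.343, adjusted p = 0.686). Each pair differs at 1 coding base, and its annotated transcripts also differ in length. They have 699 and 554 bases for Hba-a1 and Hba-a2, and 628 and 703 for Hbb-bs and Hbb-bt. How reads were divided between copies rests on the counting, a step not described in the sources used here, and its part in these ratios was not tested. If every read was assigned to 1 copy, sums of normalized counts within a pair do not depend on that division. The FPKM sums depend on it in part, since each copy has its own transcript length. In tumor 36, Hba-a2 over Hba-a1 was 0.933 in FPKM and 0.765 in normalized counts. On normalized counts the alpha to beta ratio ran from 1.03 in tumor 40 to 1.32 in tumor 36. Whether reads that match both copies were counted is not described.

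**Figure D3:**
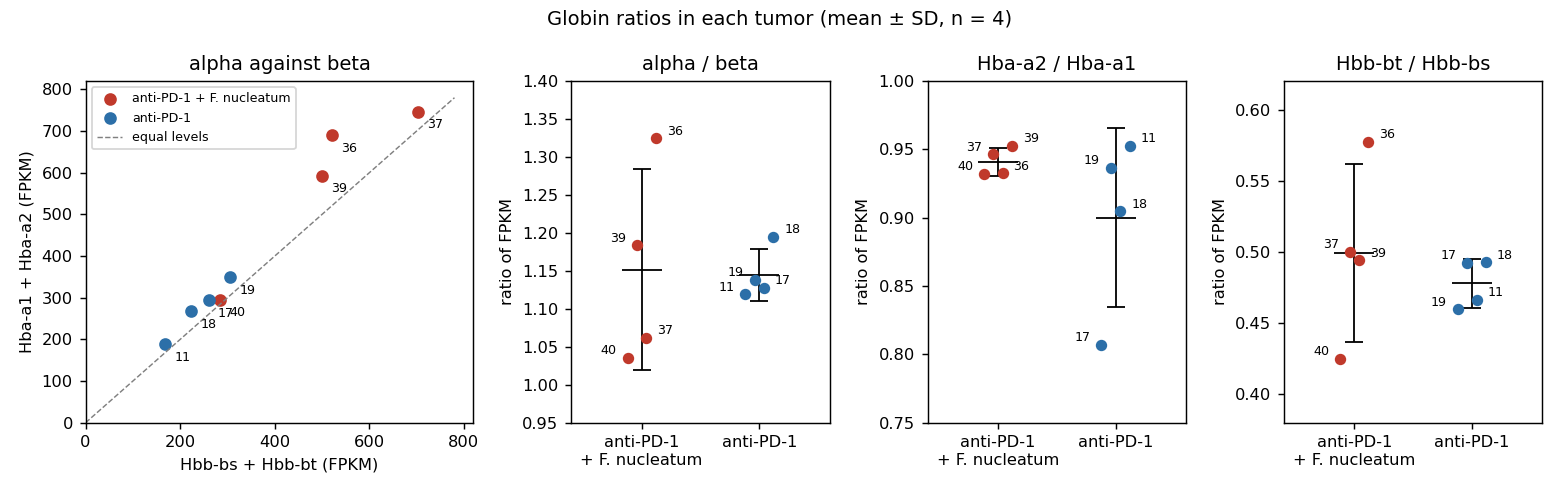
Left, summed FPKM of Hba-a1 and Hba-a2 against that of Hbb-bs and Hbb-bt in each tumor, with the dashed line marking equal levels; the other panels show 3 ratios of FPKM per tumor, with axes that do not start at 0 and group mean ± SD (n = 4). All tumors lie above the line, and the alpha to beta ratio runs from 1.04 in tumor 40 to 1.32 in tumor 36.

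Of the other genes of red cells, few were in the table, and those that were had higher means with F. nucleatum. It held 1 of 15 genes of globin chaperoning and heme synthesis, 2 of 17 genes of the red cell membrane and skeleton, 0 of 10 erythroid transcription factors and 0 of 26 genes of red cell enzymes and maturation. These 3 genes, like the 4 globins, were all higher (median log2 difference 1.28 for the 3 and 1.04 for the globins, in a table where 53.1% of genes were higher and the median was 1.18 over all genes and 1.94 over the higher ones). Of the 3, 2 passed an FDR of 0.05 in the authors' deposited table, in which 15.2% of genes were higher and passed it. None of 5 embryonic globin genes was in the table. Values of listed genes outside it were not analysed here.

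Alas2, which encodes the erythroid form of the first enzyme of heme synthesis, had 5.88, 6.13, 4.94 and 2.81 FPKM in F. nucleatum tumors 36, 37, 39 and 40, against 1.21, 2.61, 1.97 and 2.30 FPKM in anti-PD-1 tumors 11, 17, 18 and 19. Unlike in the 4 globins, the groups did not overlap, though tumor 40 lay close to tumor 17. Its authors' FDR in the deposited table was 0.00228, and its limma adjusted p was 0.0664 at a difference of 0.96 ± 0.34 (SE) on log2(FPKM + 1). That scale understates changes of low genes. On the deposited log2 values the difference of Alas2 was 1.28, against 1.001 to 1.07 in the 4 globins. Over the 8 tumors Alas2 had r = 0.981 and rho = 0.929 with the globin sum on log2(FPKM + 1) (exact permutation p = 7.94e-04 and 0.00223, adjusted 0.00159 and 0.00446). Without tumors 37 and 36 r was 0.961 over 6 tumors, and over deviations from group means 0.960. Relative to the mean of the globins, its log2 normalized count differed by 0.24 ± 0.12 (SE; exact permutation p = 0.114, adjusted p = 0.343).

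Slc4a1 encodes band 3, the anion exchanger of the red cell membrane. Its log2 normalized counts were 6.86, 7.12, 6.37 and 4.98 in F. nucleatum tumors 36, 37, 39 and 40, against 3.94, 5.07, 3.61 and 3.85 in anti-PD-1 tumors 11, 17, 18 and 19, from 29 to 144 reads and 11 to 21 reads per tumor. Its difference of 2.22 ± 0.58 (SE) was larger than that of any globin, and tumor 40 again lay among the anti-PD-1 tumors, just below tumor 17. The authors' FDR in the deposited table was 0.00312. Relative to the mean of the globins Slc4a1 differed by 1.18 ± 0.40 (SE), with 3 of 4 F. nucleatum tumors above every anti-PD-1 tumor, and this did not pass (exact permutation p = 0.0571, adjusted p = 0.343 over 6 ratios). On log2(FPKM + 1), r between Slc4a1 and the globin sum was 0.932 and rho 0.786 (exact permutation p = 0.00347 and 0.0279, adjusted 0.00463 and 0.0372). On that scale r without tumors 37 and 36 was 0.835 (exact permutation p = 0.111). Over deviations from group means r was 0.823 on log2(FPKM + 1), and 0.73 on the deposited log2 values against the mean of the globins. Slc4a1, Alas2 and the globins were all selected for the same group difference, which favours a positive r over all 8 tumors. Slc4a1 lay under the filter of the limma fit.

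Add2, a subunit of the membrane skeleton protein adducin that is also made in brain, had a different pattern. It had 1.05, 1.32, 2.497 and 2.99 FPKM in F. nucleatum tumors 36, 37, 39 and 40, against 1.07, 0.661, 0.542 and 1.58 FPKM in anti-PD-1 tumors 11, 17, 18 and 19. Tumor 40, the lowest of its group in all 4 globins, was here the highest. Its r with the globin sum on log2(FPKM + 1) was 0.261 and rho 0.357 (exact permutation p = 0.513 and 0.389, the same after adjustment). The authors' FDR in the deposited table was 0.999987.

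**Figure D4:**
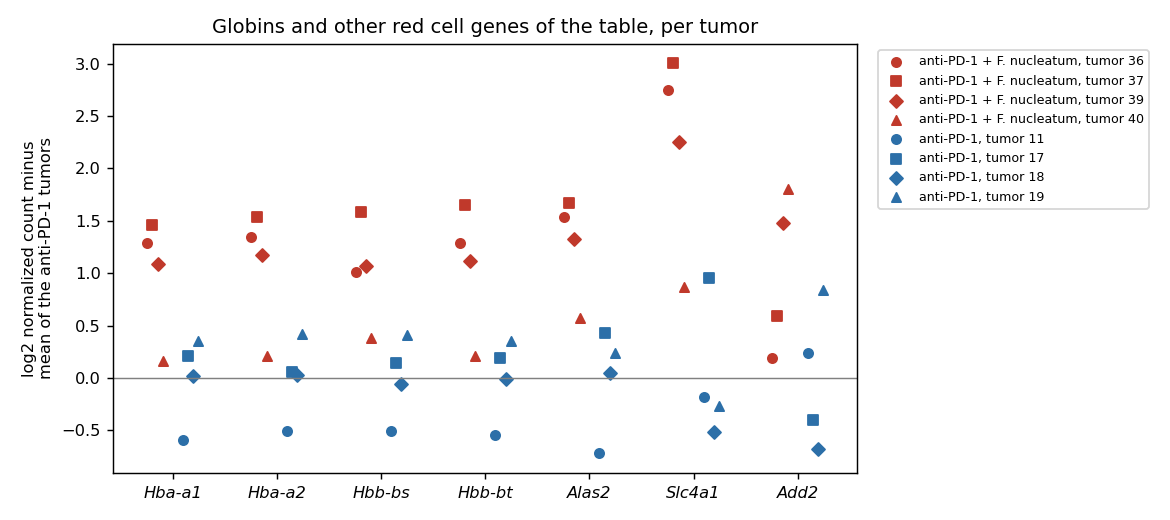
Log2 normalized count of each globin and each other listed red cell gene in each tumor, minus the mean of the anti-PD-1 tumors (line at 0). Tumors 36, 37 and 39 lie above all anti-PD-1 tumors for the globins, Alas2 and Slc4a1, while Add2 is highest in tumor 40.

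Of 5 other genes of the globin family the table held Hbq1b and Mb. Hbq1b, a theta-globin gene at chr11:32286965-32287784 between Hba-a1 and Hba-a2, had 7, 8, 2 and 0 reads in F. nucleatum tumors 36, 37, 39 and 40 and was listed at 0 in tumors 11, 17, 18 and 19. Mb encodes myoglobin, the oxygen-binding globin of muscle. It had 137 reads in tumor 36 and 17 in tumor 37 and was listed at 0 in the other 6 tumors. Its highest tumor, 36, was the highest for all 23 muscle genes, of which Mb is 1, and for 111 of the table's 752 genes. The 4 globins, Alas2, Slc4a1 and Hbq1b were highest in tumor 37, as were all 20 keratinocyte and skin genes and 200 of the table's 752 genes.

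None of 14 platelet genes, 12 endothelial genes or 13 genes of hemoglobin and heme clearance was in the table. Of 15 neutrophil genes the table held Lcn2 and Il1r2, whose summed level was 3.01 to 6.57 FPKM in F. nucleatum tumors, against 6.93 to 12.6 FPKM in anti-PD-1 tumors, opposite in direction to the globins. Epcam, an epithelial marker and the only 1 of 8 intestinal epithelial genes in the table, was listed at 0 in each anti-PD-1 tumor. With F. nucleatum its mean was 0.329 FPKM and its highest value 1.30 FPKM. Nearly all of the Epcam signal in that group therefore came from 1 tumor. The other 7 epithelial genes were not analysed here.

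Outside the red cell lists, the genes most like the globins were sought among 143 genes that averaged 1 FPKM or more, by Pearson's r of the deposited log2 values after removing each group's mean, over 8 tumors. The 5 highest were Ly86 (r = 0.81), which encodes MD-1, a partner of a Toll-like receptor homolog, the chemokine gene Ccl3 (0.76), Gzma, a granzyme of cytotoxic lymphocytes (0.75), Klrb1b, a receptor of natural killer cells (0.74), and Dmkn, an epidermal gene (0.73). The first 4 had lower means with F. nucleatum, with log2 differences from -1.16 for Ly86 to -2.93 for Gzma, and their r with the globins over all 8 tumors was below 0, from -0.07 to -0.35. The same measure was 0.94 for Alas2, 0.73 for Slc4a1 and -0.40 for Add2, and from 0.96 to 0.996 for each globin against the mean of the other 3. So few tumors give these values little precision, and they are given as a description.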

How the data were processed

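Per the labels' protocols, TRIzol-extracted total RNA went into TruSeq libraries that keep the strand. Tools named in the submitters' processing notes, without roles, are STAR 2.5, DESeq 1.22.1, Cuffnorm and FastQC, with build mm10. The authors' deposited table gives, per tumor, a log2 value, found here to be log2 of a normalized count plus 1, and an FPKM value, and per gene a fold change (log2), a p-value and an FDR, whose test the sources used here do not describe. In each tumor 100% of the values above 0 were whole multiples of 1 read (tolerance 0.1 read). This recovered reads and relative size factors of 0.644 to 1.27. Table reads per tumor ranged from 97511 to 308139, and library totals are unknown.

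Rows were tested on log2(FPKM + 1) with limma 3.58.1 in R 4.3.3 (eBayes with trend, mean of at least 1 FPKM, adjusted p under 0.05). The fit was checked on simulated data with an equal spread for every gene and a shift larger than that of the globins. That setting differs from these rows, whose spread is unequal. Ratios and correlations used two-sided exact permutation tests, adjusted over 6 and 4 (Python 3.11.15, scipy 1.17.1, pandas 2.3.3, numpy 2.4.6). A log2 difference understates changes of low genes, as 1 is added to each value. A further red cell gene is not reported here and is left out of the list counts. The globin rows, lists and tests were chosen with earlier results of these data known. Genes were named if they were Hba- or Hbb- rows, listed red cell, globin family or clearance genes in the table, or the 5 most alike in pattern; Lcn2, Il1r2, Acta1 and Epcam were named after their values were seen, and the epithelial list was written then.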

Additional observations from a re-analysis of the deposited data

How the results depend on the processing

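The number of genes called by limma, 0 of 149, was 19 at a pseudocount of 0.1 FPKM, 17 with a filter at 5 FPKM, 13 with median centring (8 of them higher), 88 with array weights, whose estimation stopped before convergence, 32 without tumors 36 and 37, and 0 to 60 with single tumors left out, the 60 without tumor 36 and 0 or 1 without any other. With a filter at 5 FPKM the globin differences were 1.004 (Hbb-bs), 1.06 (Hba-a2), 0.99 (Hba-a1) and 1.05 (Hbb-bt), and all passed. For limma, a pass is an adjusted p under 0.05 among rows already selected on this comparison, so it is a description only. With median centring, which adds 0.45 to every difference, they were 1.46, 1.52, 1.45 and 1.51 in that order, and all passed; the table holds genes chosen to differ, so a median over them is no neutral level. Array weights gave 0.70 for Hbb-bs, which passed (adjusted p = 0.0441 by limma), and 0.69, 0.59 and 0.64 for Hba-a2, Hba-a1 and Hbb-bt, which did not. Quantile normalization turned Hbb-bs to -0.026; it gives the top ranks the same values in every tumor. With single tumors left out the differences ranged from 0.82 to 1.23 (Hbb-bs), 0.91 to 1.36 (Hba-a2), 0.81 to 1.29 (Hba-a1) and 0.87 to 1.35 (Hbb-bt), with no pass. The log2 alpha to beta ratio, 0.0019, ranged from -0.068 to 0.051 with single tumors left out and was -0.048 without tumors 36 and 37 and -0.00065 on normalized counts, all without a pass. The alpha with beta correlation passed in all 11 settings. Each of them kept tumors of both groups, and so the group difference the rows were selected for, which favours a positive r. No paired analysis was possible because the labels give tumor numbers that no 2 tumors share.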

Other observations

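The annotation columns of the deposited table gave the 4 globin rows no GO term and placed all 4 in the KEGG pathways African trypanosomiasis and Malaria. The first of these held no other gene of the table.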
